A study of Homo sapiens with 12 samples.

Results

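The mitochondrial ribosomal protein genes are the genes whose symbol is MRPL or MRPS with a number and an optional letter, pseudogenes left out. On the Illumina HumanHT-12 v4 BeadChip they had 110 of 47323 probes, which belong to 76 genes. All 76 genes had a probe above background on at least 2 arrays and were among the 10491 genes tested. In the study, MCF10A cells, an immortalised line of non-tumorigenic breast epithelium, and MDA-MB-231 cells, a triple-negative breast cancer line, received a mimic at 30 nM by transfection, and total RNA was taken after 48 h. In each line 2 arrays were run for hsa-miR-140-3p (the canonical mimic), 2 for its 5’isomiR-140-3p (the 5’isomiR) and 2 for control mimics, 12 arrays in 6 groups. The controls are 1 array of mimic-ctrl1 and 1 of mimic-ctrl2, so neither has a replicate. The study's methods call the mimic replicates biological, all arrays of a line come from that 1 line, and the lines were grown in different media.

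Mitochondrial ribosomes translate the few proteins that the mitochondrial genome encodes, all of them subunits of the respiratory chain and the ATP synthase. Their RNAs are mitochondrial, but every protein of both subunits is encoded in the nucleus, made in the cytosol and imported. MRPL genes encode proteins of the large subunit, which joins amino acids, and MRPS genes those of the small subunit, which decodes the messenger RNA. MRPS30 and MRPS18A are exceptions, since their proteins sit in the large subunit, which gave 50 large-subunit and 26 small-subunit genes here. Of the 76 proteins, 45 were on a list of those with a homologue in bacterial ribosomes, and 31 were not on it. The list may be incomplete.

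Both mimics come from the 3p arm of MIR140 and differ in where they start, so they are shown with the seed, bases 2 to 8, in capitals. A microRNA finds most of its target messenger RNAs by pairing of this seed. The canonical sequence is that of RefSeq at chr16:69933142-69933162 on the plus strand of GRCh38.p14. The 5’isomiR was read from the same hairpin at chr16:69933143-69933164, with the 5’ shift of 1 base and the 3’ extension of 2 bases that the study's methods give.
hsa-miR-140-3p: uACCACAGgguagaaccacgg
5’isomiR-140-3p: aCCACAGGguagaaccacggac
The shift changes the seed and with it the matching site in a transcript, which is CTGTGGT for the canonical form and CCTGTGG for the 5’isomiR.

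Across the series, 13005 to 14848 probes an array lay above the background level set by olfactory receptor probes. Of the line markers, CDH1 and KRT5 were above background on all 6 MCF10A arrays and on 0 of the 6 MDA-MB-231 arrays, while AXL and VIM were higher in MDA-MB-231, by 4.02 and 1.27 on the log2 scale. EPCAM and LAMB3, listed for MCF10A, were lower in MDA-MB-231, at -1.52 and -0.61. Other markers listed for MDA-MB-231 did not mark it. SPARC and ZEB1 were below background on all 12 arrays, and CAV1 differed by only 0.16 (limma, adjusted p = 0.091). ESR1, PGR and the leukocyte gene PTPRC, listed as absent from both lines, were below background on all 12 arrays. The endothelial gene PECAM1, listed as absent too, was above it on 2 MCF10A and 3 MDA-MB-231 arrays. The control mimics of a line differed more than the replicates of a mimic did. Over the 76 genes the median absolute difference between the arrays of a group for the control mimics was 0.18 (MCF10A) and 0.17 (MDA-MB-231), and 0.06 to 0.13 for the mimic replicates. All values below are log2 intensities after background correction and quantile normalization, differences are differences of group means, and p-values are from limma, adjusted by Benjamini-Hochberg over all 10491 genes. A gene was called when its adjusted p passed 0.05 and its level was below 65% of that of the comparison group or more than 65% above it. Arrays measure pooled cells, so fewer cells with a transcript and less of it per cell cannot be told apart.

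The first question was which of these genes changed with the 5’isomiR against the control mimics. In MCF10A cells, 3 of the 76 genes were lower (MRPL14, MRPL30 and MRPS7) and 0 were higher, where 7.34% of all genes tested were called lower and 5.25% higher. In MDA-MB-231 cells, 2 were lower (MRPS7 and MRPL14) and 0 higher, where the shares of all genes were 5.09% and 2.41%. The median of the family lay close to that of all genes. The median log2 fold change was -0.05 in MCF10A, against 0.01 for all genes, while MDA-MB-231 gave 0.03, also against 0.01.

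MRPS7 encodes the homologue of bacterial S7, a protein that binds the ribosomal RNA in the head of the small subunit. In MCF10A its log2 levels were 10.18 with mimic-ctrl1, 9.88 with mimic-ctrl2, 10.17 and 9.98 with the canonical mimic, and 9.35 and 9.25 with the 5’isomiR. In MDA-MB-231 they were 10.44, 10.24, 10.25 and 10.21, and 8.75 and 8.52, in the same order. Both 5’isomiR arrays of each line lay below all 4 other arrays of that line. The log2 fold change against the control mimics was -0.73 ± 0.15 (SE, adjusted p = 0.0078) in MCF10A, to 60.4% of the control level. In MDA-MB-231 it was -1.70 ± 0.15 (adjusted p = 0.00013), to 30.7%, the largest decrease among the 76 genes. The 2 effects differed by -0.98 ± 0.21 (95% interval -1.44 to -0.51, adjusted p = 0.026), so the decrease was larger in MDA-MB-231. It was the only 1 of the 76 genes called for this difference between the lines, where 5.47% of all genes were, and the call was lost (adjusted p = 0.051 to 0.1) without mimic-ctrl2 or either 5’isomiR array of MCF10A, or any of the 4 canonical and 5’isomiR arrays of MDA-MB-231. The call in MCF10A itself was lost without mimic-ctrl1 (-0.58, short of the fold limit) and without 5’isomiR replicate 2 (-0.68, adjusted p = 0.055).

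MRPL14 encodes a large-subunit protein at the face that meets the small subunit, which in human cells also binds the assembly factor MALSU1. In MCF10A its log2 levels were 11.21 and 10.92 with the control mimics, 11.23 and 11.06 with the canonical mimic, and 9.93 and 10.06 with the 5’isomiR. In MDA-MB-231 they were 11.93 and 11.81, 11.68 and 11.64, and 10.32 and 10.34. The 5’isomiR arrays lay below all others in both lines. MRPL14 fell to 47.6% of the control level in MCF10A (log2 fold change -1.07 ± 0.13, adjusted p = 0.00054), and MDA-MB-231 cells kept 34.4% (-1.54 ± 0.13, adjusted p = 0.00012). The difference between the lines was -0.47 (95% interval -0.88 to -0.05, adjusted p = 0.18). MALSU1 itself was at 11.63 and 11.91 with the control mimics and 11.65 and 11.64 with the 5’isomiR in MCF10A, and at 11.62 and 11.59 against 11.73 and 11.68 in MDA-MB-231.

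MRPL30 encodes the homologue of bacterial L30, another large-subunit protein. Its log2 levels in MCF10A were 8.80 and 8.79 with the control mimics, 8.94 and 8.95 with the canonical mimic, and 7.96 and 8.12 with the 5’isomiR, a fall to 59.2% of the control level (-0.76 ± 0.12, adjusted p = 0.0023). In MDA-MB-231 they were 7.47 and 7.60, 7.72 and 7.95, and 7.09 and 7.15. Here too the 5’isomiR arrays were the lowest, at a log2 fold change of -0.41 ± 0.12 (adjusted p = 0.058), which did not pass. The effects in the 2 lines differed by 0.34 (95% interval -0.04 to 0.73, adjusted p = 0.3). A second MRPL30 probe, above background on 8 of the 12 arrays, gave -0.39 and -0.28 in the 2 lines, and neither was called.

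**Figure D1:**
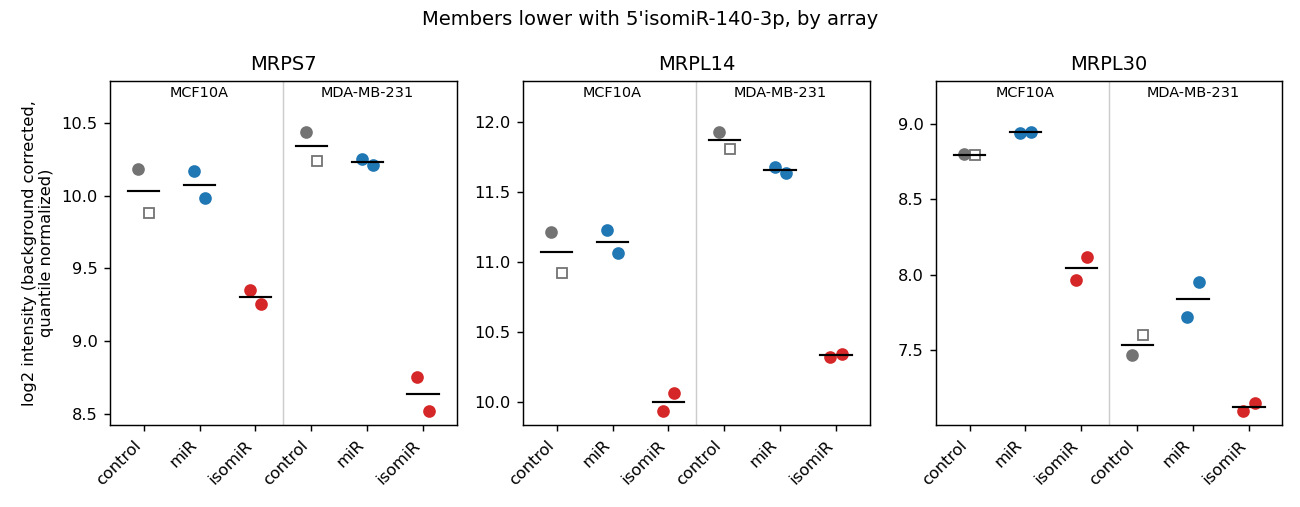
Log2 intensity (vertical axis) of MRPS7, MRPL14 and MRPL30 on each of the 12 arrays by cell line and mimic (horizontal axis), where miR is the canonical mimic, isomiR the 5’isomiR, filled grey circles are mimic-ctrl1, open squares mimic-ctrl2 and bars the group means. The 2 isomiR arrays of each line are the lowest of that line for all 3 genes, down to 8.52 for MRPS7 in MDA-MB-231.

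By the adjusted p alone, with no fold limit, 8 genes were lower and 2 higher with the 5’isomiR in MCF10A, where 10.9% and 9.9% of all genes were. The further lower genes were MRPL13, MRPL17, MRPL39, MRPS12 and MRPS23, between -0.52 and -0.36, and the higher ones MRPS18B and MRPL34. In MDA-MB-231, 5 genes were lower and 3 higher, where 6.86% and 4.66% of all genes were. These were MRPL46, MRPL49 and MRPL13 beside MRPS7 and MRPL14, and, higher, MRPL35, MRPL40 and MRPS18B. MRPL46 encodes a large-subunit protein with no bacterial homologue, and its log2 fold change was -0.55 ± 0.12 (adjusted p = 0.016), to 68.4% of control.

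MRPS18B, which encodes 1 of the 3 mammalian homologues of bacterial S18, was the member that rose most by this rule in MCF10A. Its levels there were 10.39 and 10.20 with the control mimics, 10.38 and 10.32 with the canonical mimic, and 10.93 and 10.98 with the 5’isomiR, which is 0.66 ± 0.13 higher than control (adjusted p = 0.0072) and at 158% of the control level just short of the limit. In MDA-MB-231 they were 10.91 and 10.64, 11.13 and 10.96, and 11.31 and 11.38, a log2 fold change of 0.57 ± 0.13 (adjusted p = 0.023). The 5’isomiR arrays lay above all others in both lines. Its second probe gave 0.81 in MCF10A and was called there.

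With the canonical mimic against the control mimics, 0 of the 76 genes were called in either direction in either line. Among all genes, 0.715% were called lower and 0.143% higher in MCF10A, with 1.02% and 0.191% in MDA-MB-231, so that less than 1 call among 76 genes matches those shares. Unadjusted p-values under 0.05 were found for 4 genes in MCF10A and for 10 genes of the MDA-MB-231 comparison. The share of all genes with such p-values was not computed, so these counts cannot be read as a response of the family. By the adjusted p alone, 1 gene was lower and 0 higher in MCF10A, where 0.724% and 0.2% of all genes were, and 0 lower and 1 higher in MDA-MB-231, where 1.1% and 0.286% were. The median of the family was 0.07 in both lines, against 0.01 and -0.00 for all genes.

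The gene that passed in MCF10A was MRPL52, which encodes a large-subunit protein specific to mitochondria. Its levels were 9.27 and 9.40 with the control mimics, 8.81 and 8.69 with the canonical mimic, and 9.04 and 9.02 with the 5’isomiR, which puts the canonical mimic at 66.5% of control (-0.59 ± 0.11, adjusted p = 0.047). In MDA-MB-231 the same arrays read 9.91 and 9.85, 10.06 and 9.96, and 10.09 and 10.02. The difference between the lines in the effect of the canonical mimic was 0.72 ± 0.16 for MRPL52 (adjusted p = 0.28), and 0 of the 76 genes were called for that difference, as were 0% of all genes tested. Unadjusted p-values under 0.05 were found for 2 of the 76. The share of all genes was not computed for this count either, so it cannot be read as a response of the family. The others of lowest p in MCF10A were MRPL47 (-0.38), MRPL1 (-0.27) and MRPL32 (-0.28), with adjusted p from 0.23 to 0.35.

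MRPL35, the homologue of bacterial L35 in the large subunit, was higher in MDA-MB-231 with both mimics on its brightest probe, but not on its others. The control mimics read 10.48 and 10.53, the canonical mimic 11.07 and 11.12, and the 5’isomiR 11.25 and 11.15, and the control arrays lay below all others. The log2 fold change was 0.59 ± 0.10 with the canonical mimic (adjusted p = 0.028) and 0.69 ± 0.10 with the 5’isomiR (adjusted p = 0.003), to 150.3% and 162% of control, both short of the fold limit. The same 2 control arrays entered both values. The 2 dimmer MRPL35 probes, above background on all 12 arrays, gave 0.16 and 0.05 with the 5’isomiR and -0.21 and -0.13 with the canonical mimic (adjusted p from 0.62 to 0.92), so the rise depended on the probe. In MCF10A, MRPL35 read 10.87 and 10.85, 10.98 and 10.95, and 11.06 and 11.11. In MDA-MB-231, MRPS26 (0.36), MRPS27 (-0.39) and MRPL34 (0.39) followed for the canonical mimic, with adjusted p from 0.16 to 0.2.

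**Figure D2:**
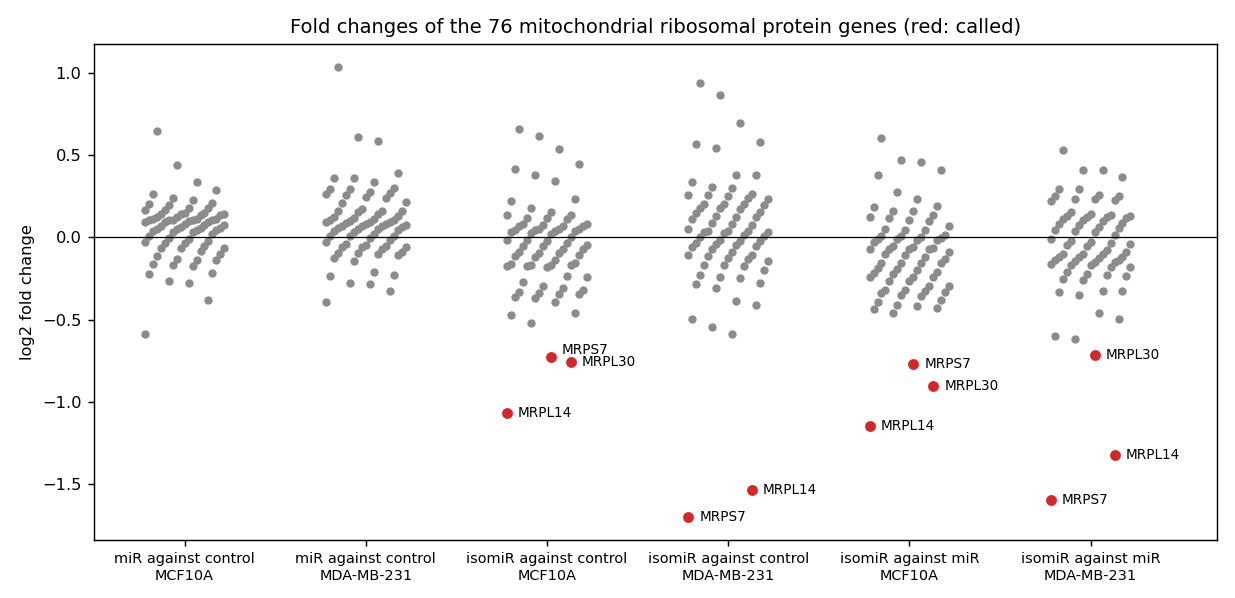
Log2 fold change (vertical axis) of each of the 76 genes in the 6 comparisons of mimics (horizontal axis), each gene 1 point spread sideways for legibility, with called genes in red and named. MRPS7, MRPL14 and MRPL30 are the only genes called, down to -1.70 for MRPS7, and the points of the canonical mimic against control hold no called gene.

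The 2 mimics were also compared directly, at the same dose and time, as 1 pair in each of the 2 lines. The difference of means uses no control array, though the spread behind its test was estimated over all 6 groups. The 5’isomiR was lower than the canonical mimic for the same 3 genes in both lines, MRPS7, MRPL14 and MRPL30, and higher for 0 of the 76. Of all genes, 6.43% were called lower and 5.21% higher in MCF10A, with 3.58% and 1.45% in MDA-MB-231. MRPL14 was at 45.2% of its level with the canonical mimic in MCF10A (-1.15 ± 0.13, adjusted p = 0.00044), and the value for MDA-MB-231 was 39.9% (-1.33 ± 0.13, adjusted p = 0.00045). MRPS7 was at 58.5% (-0.77 ± 0.15, adjusted p = 0.0063) and 33.1% (-1.60 ± 0.15, adjusted p = 0.00034). MRPL30 was at 53.5% (-0.90 ± 0.12, adjusted p = 0.001) and 60.9% (-0.71 ± 0.12, adjusted p = 0.0076). Without canonical replicate 1, MRPS7 missed the test in MCF10A (-0.68, adjusted p = 0.055), and MRPL30 missed it in MDA-MB-231 without canonical replicate 2 (-0.60, adjusted p = 0.085) or 5’isomiR replicate 1 (-0.69, adjusted p = 0.064). For the canonical mimic against control, the 95% intervals of these genes included 0 in both lines except for MRPL30 in MDA-MB-231. They were -0.28 to 0.38 (MCF10A) and -0.44 to 0.22 (MDA-MB-231) for MRPS7, -0.22 to 0.37 and -0.50 to 0.08 for MRPL14, and -0.13 to 0.42 and 0.03 to 0.57 for MRPL30.

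Next to these, MRPS18B was higher with the 5’isomiR than with the canonical mimic in MCF10A (0.60 ± 0.13, adjusted p = 0.012) and MRPL13, the homologue of bacterial L13, lower in MDA-MB-231 (-0.62 ± 0.11, adjusted p = 0.011), both short of the fold limit. MRPL13 read 10.70 and 10.68 with the canonical mimic and 10.17 and 9.98 with the 5’isomiR there. For MRPL35 the mimics differed by 0.11 in MDA-MB-231, with a 95% interval of -0.13 to 0.34. The medians of the family were -0.09 (MCF10A) and -0.04 (MDA-MB-231), those of all genes -0.00 and 0.01.

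The cell lines were compared over 6 arrays each, with a smaller error than the mimics (median SE 0.08 over the 76 genes, against 0.13), so counts of calls cannot be set against each other. Over the 3 mimic groups of each line, 20 of the 76 genes were lower in MDA-MB-231 than in MCF10A and 3 were higher, where 19.6% of all genes were called lower and 19.7% higher. By the adjusted p alone, 39 were lower and 16 higher, where 35% and 38.5% of all genes were. The median of the family was -0.26, against 0.02 for all genes, and 65.8% of the members had a value below 0, against 48.6% of all genes. All 20 lower genes were lower, and all 3 higher genes higher, in each of the 3 mimic groups. The call was made on the mean over these same groups, so this agreement is no separate support. Of the 53 genes not called, 23 were lower and 15 higher in all 3 groups. The medium and the line cannot be told apart, and 1 line stands on each side.

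MRPS21, the homologue of bacterial S21 in the small subunit, had the largest decrease. Its levels ran from 11.50 over a median of 11.71 to 11.78 in MCF10A and from 10.10 over 10.38 to 10.45 in MDA-MB-231 (n = 6 arrays each). The difference was -1.35 ± 0.08 (adjusted p = 1.8e-07), to 39.3%, and the lines did not overlap. A second MRPS21 probe gave -0.42 and was not called, so the size depended on the probe.

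MRPL19, a large-subunit protein with a bacterial homologue, ranged from 9.30 to 9.52 (median 9.43) in MCF10A and from 7.88 to 8.50 (median 8.22) in MDA-MB-231, a difference of -1.22 ± 0.09. MRPL4, whose bacterial homologue lines the exit tunnel of the nascent peptide, ranged from 9.05 to 9.36 (median 9.21) and from 7.89 to 8.33 (median 8.03), a difference of -1.13 ± 0.08. MRPS31, a small-subunit protein found only in mitochondrial ribosomes, ranged from 10.20 to 10.54 (median 10.30) and from 9.12 to 9.36 (median 9.25), a difference of -1.07 ± 0.07. The lines were separate for all 3 genes, with adjusted p from 2e-07 to 8.8e-07.

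MRPL30, already described for the 5’isomiR, was lower in MDA-MB-231 too, from 7.96 over 8.80 to 8.95 in MCF10A and from 7.09 over 7.53 to 7.95, a difference of -1.10 ± 0.07 (adjusted p = 2.7e-07). The range of each line includes the 5’isomiR arrays, and the difference was -1.26 with the control mimics, -1.11 with the canonical mimic and -0.92 with the 5’isomiR. The other 15 lower genes lay between -1.07 (MRPL44) and -0.73 (MRPL32). Of the 20, 10 belong to the large and 10 to the small subunit, which is 10 of 50 and 10 of 26 genes, with medians of -0.23 and -0.42 over all members. Genes on the list of bacterial homologues gave 12 of 45 and those not on it 8 of 31, with medians of -0.30 and -0.24.

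MRPS10, the homologue of bacterial S10, was the highest in MDA-MB-231, with levels from 11.48 over 11.64 to 11.93 against 10.63 over 10.72 to 10.90 in MCF10A (0.96 ± 0.07, adjusted p = 4.4e-07), at 194% of the MCF10A level. MRPL52 followed at 0.94 ± 0.06 (adjusted p = 4.2e-07), which was 0.54 with the control mimics, 1.26 with the canonical mimic and 1.03 with the 5’isomiR. MRPL24, the homologue of bacterial L24, was 0.76 ± 0.09 higher (adjusted p = 1.9e-05), with 0.75 on its second probe, which was called too. For MRPS7 the mean of -0.07 (95% interval -0.26 to 0.12) joined values of opposite sign, which were 0.31 with the control mimics, 0.16 with the canonical mimic and -0.67 with the 5’isomiR. MRPL14 was 0.55 ± 0.08 higher in MDA-MB-231 (adjusted p = 8.2e-05), at 146% and below the fold limit, and its values in the mimic groups were 0.80, 0.51 and 0.33 in the same order.

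**Figure D3:**
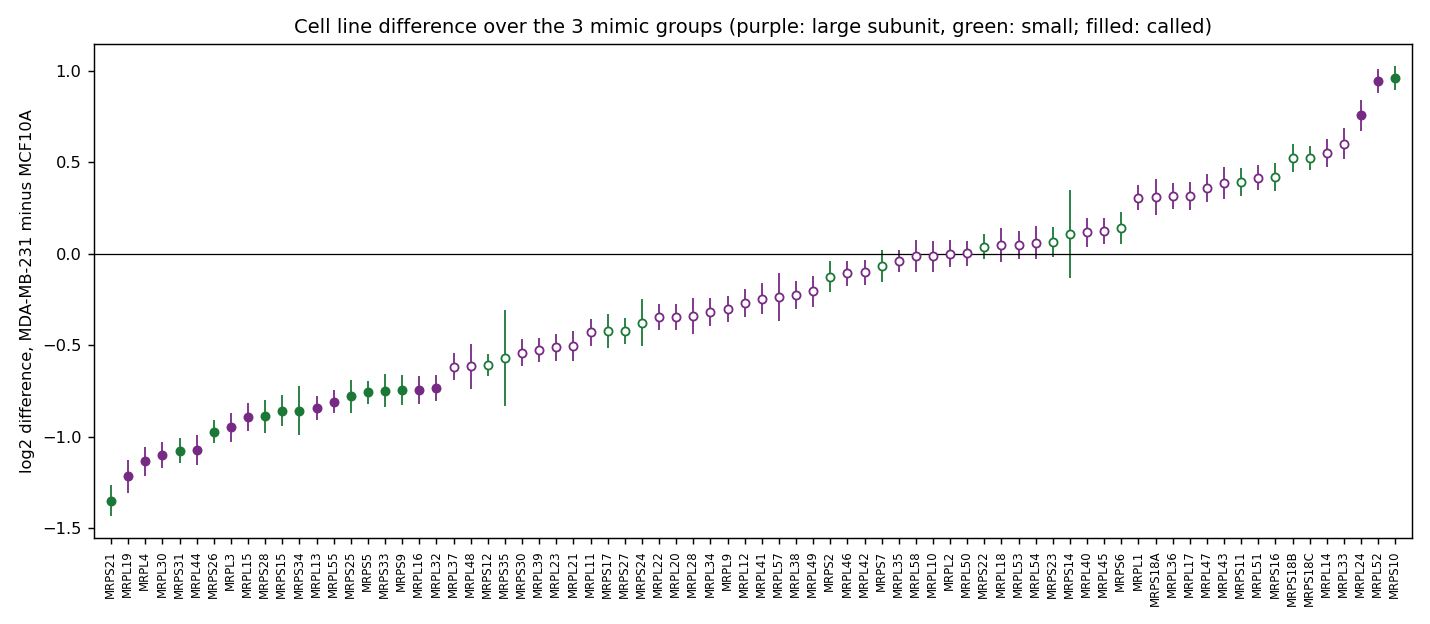
Log2 difference of MDA-MB-231 minus MCF10A over the 3 mimic groups (vertical axis, bars are standard errors) for the 76 genes in order of size (horizontal axis), purple for the large and green for the small subunit, filled where called. The 20 called lower genes reach from -0.73 to -1.35 for MRPS21, and the 3 called higher ones, MRPL24, MRPL52 and MRPS10, from 0.76 to 0.96.

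Of the 76 genes, 55 had 1 tested probe, 16 had 2 and 5 had 3 or more, and the brightest was used. For some the choice of probe decided the call. Between the lines, a dimmer probe was called lower for MRPL11 (-0.998, with -0.43 on the brightest) and for MRPL20 (-0.67, with -0.35). Both other tested probes of MRPS12, the homologue of the bacterial decoding protein S12, were called lower (-0.91 and -1.12, with -0.61 on the brightest), and 1 other probe of MRPL43 higher (0.80, with 0.39). The third MRPL43 probe was called higher as well, but it was not above background on any MCF10A array. It was above background on 5 of the 6 MDA-MB-231 arrays. Set against a bound for MCF10A, it was 1.17-fold higher in MDA-MB-231. This is no strict minimum, since the MDA-MB-231 array not above background entered at its measured value. Bounds raised the dim arrays of the lower group to the lowest signal above background on each. The reverse held for MRPS33, which was called on its brightest probe (-0.75) and not called on the other (0.01). MRPL55 was called on its 2 brighter probes (-0.81 and -0.84) and not on the third, which was above background on 2 arrays. With the 5’isomiR in MCF10A, 1 dimmer MRPS12 probe was called lower at -0.66, with -0.39 on the brightest. Against the canonical mimic in MCF10A the same probe was called lower at -1.04 (adjusted p = 0.00085), with -0.43 on the brightest, and the second MRPS18B probe was called higher at 0.76, with 0.60 on the brightest.

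The control mimics were compared with each other as the mean over both lines of mimic-ctrl1 minus mimic-ctrl2, each with 1 array per line and the spread taken from the mimic replicates. One of the 76 genes, MRPS35, was called lower with mimic-ctrl1 and 1, MRPS14, higher, where 2.24% of all genes were lower and 1.25% higher. The median of the family was 0.09, against 0.01 for all genes.

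MRPS35 encodes a small-subunit protein with no bacterial homologue. With mimic-ctrl1 it read 8.14 in MCF10A cells and 7.10 in MDA-MB-231 cells. With mimic-ctrl2 it read 9.26 and 8.69. The 4 arrays of the other mimics read 9.30 to 9.37 in MCF10A and 8.72 to 9.04 in MDA-MB-231. The mimic-ctrl1 array was thus the lowest of each line, and mimic-ctrl2 lay just below the rest. The difference was -1.36 ± 0.12 (adjusted p = 0.003), the mean of -1.12 (MCF10A) and -1.59 (MDA-MB-231). The low mimic-ctrl1 array enters the control mean, and MRPS35 had the largest positive log2 fold change of the family with the canonical mimic in both lines (0.65 and 1.04) and with the 5’isomiR in MDA-MB-231 (0.94), none of which passed the test (adjusted p from 0.23 to 0.59).

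MRPS14, the homologue of bacterial S14, was dim and lay above background on 9 of the 12 arrays. It read 5.92 with mimic-ctrl1 and 5.55 with mimic-ctrl2 in MCF10A. In MDA-MB-231 it read 6.25 and 4.66, where the mimic arrays read 6.02 to 6.46. The mimic-ctrl2 array of neither line was above background, so the comparison gives only a bound, at least 1.32-fold higher with mimic-ctrl1. The call itself (adjusted p = 0.031) rests on measured values with a mean difference of 0.97 ± 0.20, from 0.36 (MCF10A) and 1.59 (MDA-MB-231), and without either control array of MDA-MB-231 it was lost (0.36, adjusted p = 0.56). MRPS24, the homologue of bacterial S3, had -0.43 ± 0.09 (adjusted p = 0.032), at 74.1% above the lower fold limit. It read 10.95 with mimic-ctrl1 and 11.82 with mimic-ctrl2 in MDA-MB-231 but 11.75 and 11.74 in MCF10A, so that it stood on 1 array. MRPS18A read 8.86 with mimic-ctrl1 and 8.24 with mimic-ctrl2 in MCF10A but 8.81 and 8.83 in MDA-MB-231 (0.30, adjusted p = 0.068).

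**Figure D4:**
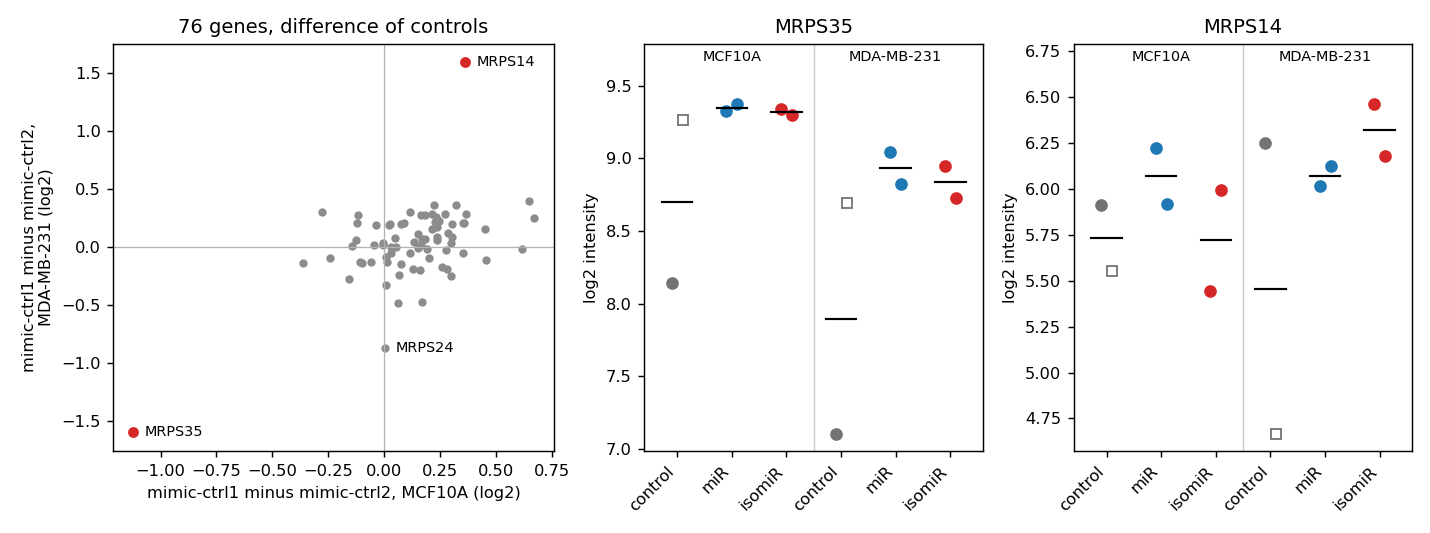
Left, mimic-ctrl1 minus mimic-ctrl2 in MCF10A (horizontal axis, log2) and in MDA-MB-231 (vertical axis, log2) for the 76 genes, called genes in red. Middle and right, log2 intensity of MRPS35 and MRPS14 by array, with mimic-ctrl1 as a filled grey circle, mimic-ctrl2 as an open square, and bars for group means. MRPS35 stands at -1.12 and -1.59, low on both mimic-ctrl1 arrays, and MRPS14 at 0.36 and 1.59, where both mimic-ctrl2 arrays were not above background.

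Other parts of the mitochondrial translation apparatus were read from lists of known genes. The first list, of 6 genes, held mitoribosomal proteins under other names and the insertase OXA1L, which is no ribosomal protein. Of these 6 genes, 4 were measured, and 0 were called in any comparison. DAP3, a GTP-binding protein of the small subunit, stayed between 10.45 and 10.74 on all 12 arrays. Of 15 translation factors, 14 were measured and 0 were called for a mimic. Between the lines, 2 of the 14 were lower in MDA-MB-231 and 0 higher, where 19.6% and 19.7% of all genes were. These were TSFM, the exchange factor of the elongation factor TUFM, and MTFMT, which formylates the initiator methionyl-tRNA (-1.12 and -1.23). The list's median was -0.33, against 0.02 for all genes.

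Of 26 assembly and rRNA processing factors, 24 were measured. With the 5’isomiR in MDA-MB-231, 2 of them were called lower and 0 higher, near the 5.09% of all genes called lower there. These were RPUSD4, a pseudouridine synthase acting on the large rRNA, and MPV17L2, needed for ribosome assembly in human mitochondria. RPUSD4 read 10.75 and 10.48 with the control mimics, 10.52 and 10.48 with the canonical mimic, and 9.72 and 9.88 with the 5’isomiR (-0.81 ± 0.13, adjusted p = 0.0037). MPV17L2 read 6.19 and 6.75, 6.30 and 6.59, and 5.47 and 5.71 (-0.88 ± 0.22, adjusted p = 0.033). Its value of 5.47 lay near background, since an MRPL57 probe at 5.46 on that array was not above it. The sizes of the MPV17L2 differences in MDA-MB-231 are therefore uncertain. Against the canonical mimic, both were called lower in MDA-MB-231 and MPV17L2 alone in MCF10A (-0.72, adjusted p = 0.049). Of all genes, 3.58% were called lower in that comparison in MDA-MB-231 and 6.43% in MCF10A. With the 5’isomiR against control in MCF10A, 0 of the 24 were called, where 7.34% of all genes were called lower and 5.25% higher. Between the lines, 7 of the 24 were lower in MDA-MB-231 and 0 higher, where 19.6% and 19.7% of all genes were, with TFB1M, which methylates the small rRNA, at -1.06, and the list's median was -0.37, against 0.02 for all genes. MTG1 was lower with mimic-ctrl1 (-0.71, adjusted p = 0.023).

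Of 17 mitochondrial aminoacyl-tRNA synthetases, which charge the tRNAs that the ribosome uses, 16 were measured. With the 5’isomiR 1 was called lower in each line, MARS2 in MCF10A (-0.73 ± 0.18, adjusted p = 0.018) and IARS2 in MDA-MB-231 (-0.85 ± 0.15, adjusted p = 0.0076), and 0 were called with the canonical mimic. The shares of all genes called lower with the 5’isomiR were 7.34% and 5.09%, close to 1 of 16. Between the 2 mimics directly, 0 of the 16 were called in either line, where 6.43% (MCF10A) and 3.58% (MDA-MB-231) of all genes were called lower. MARS2 in MCF10A was at -0.35 in that comparison (adjusted p = 0.21) and at -0.38 with the canonical mimic against control. IARS2 in MDA-MB-231 was at -0.60 between the mimics (adjusted p = 0.045), short of the fold limit. Between the lines 7 of the 16 were lower and 0 higher, where 19.6% and 19.7% of all genes were, with a median of -0.58, against 0.02 for all genes. NARS2 (-2.03) was among these 7, and it was also lower with mimic-ctrl1 than with mimic-ctrl2 (-1.29, adjusted p = 0.0039), at 7.89 against 8.88 in MCF10A and 5.40 against 6.99 in MDA-MB-231. The NARS2 value of 5.40 lay near background, since an MRPL57 probe at 5.37 on that array was not above it. The size of the difference in MDA-MB-231 is therefore uncertain.

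Promoters of the members were read as well. RefSeq promoters (GRCh38.p14, 250 bases before to 50 after the start) matched 68 of the 76 genes. They were searched on both strands for sites known from genes of the respiratory chain and ribosomes, and the letters of the motifs do not contain one another. The NRF1 site GCGCANGCG was found in 13 member promoters (19.1%), against 8.05% of all 27305 promoters. The ETS core CCGGAAG, which NRF2/GABP also binds, was found in 28 (41.2%), against 10.7%, and the YY1 site AANATGGCG in 18 (26.5%), against 3.37%. Of the 17 matched genes lower in MDA-MB-231, 4 held the NRF1 site, 8 the ETS core and 2 the YY1 site. Of the 48 not called between the lines, 9, 18 and 14 did. A match is a description of the letters and no measure of binding. The shares were set against all promoters and not against those of the 10491 genes tested. A difference between expressed genes and other genes is therefore not separated from a trait of the family.

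Of the 3 genes lower with the 5’isomiR, MRPL14 and MRPL30 held the NRF1 site, MRPL30 the ETS core as well, and MRPS7 none of the motifs in this window. The stretches around the matches are shown with the motif in capitals, in the direction of the gene. They lie at chr6:44127412-44127441 on the minus strand, 123 bases before the MRPL14 start, and at chr2:99181059-99181088 and chr2:99181028-99181057 on the plus strand, 115 and 145 bases before the MRPL30 start.
MRPL14, NRF1 site: tgggcctggcGCGCAGGCGctaggaagagg
MRPL30, NRF1 site: gatacccaggCGCCTGCGCtctctttctag
MRPL30, ETS core: ggtctgctgcgCTTCCGGgaagtggtcatg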

How the data were processed

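The authors deposited 1 table of probe intensities on a linear scale, 1 column per array, normalized between arrays without background subtraction. A second table, with 24 columns that match no sample label, was not used. The normalization tool is not given in the sources used here. In R 4.3.3 with limma 3.58.1, neqc (normexp, offset 16, with 457 olfactory receptor probes as negative controls) corrected the background, normalized by quantiles and took log2. Probes above the 0.99 quantile of these controls on at least 2 arrays were kept, 13705 in all, and the brightest probe stood for a gene. Genes were named by the platform annotation, updated by gene ID; a match of probes to pseudogenes was not examined. A model with 6 group means (6 residual degrees of freedom) was fitted to 10491 genes; control mimics were compared in a model with 8 means. The number of arrays limits the precision. Genes named with values are the called members, or the 4 of lowest p, and those whose probes differ in call. The fit was tested on simulated data. The members and lists were chosen with earlier results of these data known. Alternatives covered background, normalization, filter, probe choice, fold limit, model, replicate block and leaving out arrays.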

Additional observations from a re-analysis of the deposited data

Results flagged for a closer look

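The effect of 5’isomiR-140-3p on MRPS7 differed between the cell lines by a test of the difference itself, a log2 value of -0.976 for MDA-MB-231 minus MCF10A (adjusted p = 0.026 from limma, n = 2 arrays a group). The fall against the control mimics was -1.70 in MDA-MB-231 and -0.73 in MCF10A, and both 5’isomiR arrays of a line were below the other arrays of that line. The call was lost (adjusted p = 0.051 to 0.1) when any 1 of 7 arrays was left out, and with the replicate block.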

How the results depend on the processing

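The text's counts of called genes were recomputed under each alternative, and calls at 2 arrays a group leave small effects undetectable. Without a fold limit, the lower and higher counts for the 5’isomiR against control were 8 and 2 in MCF10A, with 5 and 3 in MDA-MB-231, for the canonical mimic 1 and 0, and 0 and 1, for the 5’isomiR against the canonical mimic 6 and 2, and 6 and 1, between the lines 39 and 16, and for the control mimics 2 lower. With the methods' t-test, adjusted by Benjamini-Hochberg, the 3, 2, 3 and 3 lower genes of the 5’isomiR comparisons became 0; it was not run for the control mimics or the differences of effects. With the mean of all probes, or any probe, 1 gene (MRPS18B) was called higher with the 5’isomiR in MCF10A, and with any probe 1 also against the canonical mimic. MRPL30 missed the limit for the mean of its probes (-0.57 in MCF10A), without background correction (-0.61) and on the deposited values (-0.62). With a mean for each control mimic, 2 genes (MRPS14 and MRPS35) were higher with the 5’isomiR in MDA-MB-231 and 1 (MRPS35) with the canonical mimic. For mimic-ctrl1 against mimic-ctrl2, MCF10A alone gave 0 genes lower and MDA-MB-231 alone 2, and MRPS14 left 0 higher without background correction, on the deposited values, without a filter, with the 0.95 filter, in MCF10A alone, with a mean for each control mimic and with the replicate block. MRPS24 turned to 0.00216 in MCF10A alone and MRPS18A to -0.0169 in MDA-MB-231 alone. Same-numbered arrays of the 2 mimics did not deviate together over all genes (r = 0.02 and -0.02). That cannot settle whether they were handled as pairs, and it does not cover the control arrays. With a replicate block, the MRPS7 difference between the lines lost its call (0 genes) and its fall in MCF10A was -0.65, short of the fold limit. Leaving out 1 array gave, for the 5’isomiR against control, 2 to 4 lower and 0 to 2 higher in MCF10A, with 2 to 3 and 0 to 1 in MDA-MB-231, for the canonical mimic 0 to 2 higher in MDA-MB-231, for the 5’isomiR against the canonical mimic 2 to 3 lower in each line, between the lines 20 to 22 and 2 to 3, for the control mimics 1 to 2 lower and 0 to 1 higher, and 0 to 2 for the difference of the 5’isomiR effects. MRPS7 lost its call in MCF10A without mimic-ctrl1 (-0.58) or 5’isomiR replicate 2 (-0.68), and its difference between the lines without mimic-ctrl2 or either 5’isomiR replicate in MCF10A or any of the 4 mimic arrays of MDA-MB-231 (-0.82 to -1.09). Without mimic-ctrl1 in MDA-MB-231, MRPS14 was called higher with both mimics there, and without mimic-ctrl2, MRPS35, with MRPS24 for the canonical mimic. MRPL30 lost its call against the canonical mimic in MDA-MB-231 without the canonical mimic replicate 2 (-0.60), where the count was 2; without 5’isomiR replicate 1, its adjusted p was 0.064. The cause of these changes was not tested.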
